A study of Mus musculus with 9 samples.

Results

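The genes described here are the formyl peptide receptors Fpr1, Fpr2 and Fpr3 of mouse bone marrow-derived dendritic cells (BMDCs). They were picked by symbol, as the 3 rows named Fpr1, Fpr2 and Fpr3 among the 57238 entries of the gene count table. RNA from BMDCs was sequenced in 9 libraries to ask how exosomes shed by tumor cells alter dendritic cells. In every group, wildtype C57BL/6 bone marrow had spent 6 days in medium with GM-CSF at 20 ng/ml. The CTR group (n = 3) received no exosomes. The NE group (n = 3) was given exosomes of the non-cancerous fibroblast line NIH 3T3 for 24 h, and the TDE group (n = 3) tumor cell exosomes for 24 h. The labels do not name the tumor line of this experiment. According to the methods, exosomes whose source is not stated came from the cervical carcinoma line TC-1 or the colon carcinoma line MC38. Nothing in the labels says that the 3 libraries of a group came from separate mice or cultures, so the spread between them, and every p-value below, may be technical only.

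Formyl peptide receptors are Gi protein-coupled receptors of myeloid cells that sense N-formylated peptides, which bacteria and mitochondria share because both begin protein synthesis with formylmethionine. FPR1 binds short formyl peptides tightly and drives chemotaxis and the oxidative burst of phagocytes. FPR2 takes a wider range of peptides, proteins and lipids, among them annexin A1, cathelicidin and serum amyloid A, and can convey either inflammatory or resolving signals. In mice the receptor family has expanded into a cluster, in which Fpr3 is a close relative of Fpr2.

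The 3 genes lie side by side on chromosome 17 (positions in GRCm38, GENCODE vM21). Fpr1 occupies 17876471 to 17883940 on the minus strand, Fpr2 17887824 to 17893952 on the plus strand and Fpr3 17887852 to 17971677 on the plus strand. Each has its coding bases in 1 exon of its main transcript. The long Fpr3 transcript begins within Fpr2: its untranslated first exon (17887852 to 17887899, 48 bases) lies within the first exon of Fpr2, and its coding exon lies at 17970458 to 17971677. Reads from those 48 bases could belong to either gene. No exon of any other gene overlaps the 3 receptors in that annotation.

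Because reads are shared between near-identical genes, the coding sequences bear on how far the counts can be told apart. Fpr2 and Fpr3 were identical at 928 of 1053 coding bases (88.1%), with no gap and a longest identical run of 94 bases, whereas Fpr1 shared 66.4% with Fpr2 and 66.5% with Fpr3. The start of the coding sequence shows the likeness (chr17:17892744-17892863 for Fpr2, chr17:17970469-17970588 for Fpr3, GRCm38, plus strand, 5′ to 3′). Capitals mark the 8 bases that differ among these 120.
Fpr2: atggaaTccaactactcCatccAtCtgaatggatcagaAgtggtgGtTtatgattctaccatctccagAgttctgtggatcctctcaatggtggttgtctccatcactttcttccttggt
Fpr3: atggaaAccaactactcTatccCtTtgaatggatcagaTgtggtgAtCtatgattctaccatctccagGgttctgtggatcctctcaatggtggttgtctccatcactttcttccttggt
Of the 50-base windows of the Fpr2 transcript 6.33% occur unchanged in that of Fpr3, and of the 100-base windows 0. Fpr2 had a fractional count, which an estimate that divides ambiguous reads gives, in 6 of 9 libraries and Fpr3 in 2 (both TDE). Every Fpr1 count was whole. In those 6 libraries the Fpr2 count and that of the pseudogene Gm5966, described below, together made a whole number. In TDE replicate 1 they were 10379.78 and 53.22, while Fpr3 was whole at 621. The Fpr2 fractions thus do not show reads divided between Fpr2 and Fpr3.

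The 250 bases before each RefSeq start are given next, since the mRNA of each receptor was higher in TDE (RefSeq, GRCm38.p6, 5′ to 3′ on the gene's strand). Fpr1 is at chr17:17883940-17884189 (minus), Fpr2 at chr17:17887574-17887823 (plus) and Fpr3 at chr17:17970208-17970457 (plus). The Fpr3 window precedes its coding exon and is intronic in the long GENCODE transcript. Capitals mark matches, on either strand, to the letters TTNNGNAA (C/EBP), TTCNNNGAA (STAT) and GAGGAA (PU.1).
Fpr1: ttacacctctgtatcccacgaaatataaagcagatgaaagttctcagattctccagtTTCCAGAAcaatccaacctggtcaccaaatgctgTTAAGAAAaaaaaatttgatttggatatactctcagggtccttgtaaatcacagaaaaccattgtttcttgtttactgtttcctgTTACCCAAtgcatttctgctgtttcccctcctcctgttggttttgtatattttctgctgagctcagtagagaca
Fpr2: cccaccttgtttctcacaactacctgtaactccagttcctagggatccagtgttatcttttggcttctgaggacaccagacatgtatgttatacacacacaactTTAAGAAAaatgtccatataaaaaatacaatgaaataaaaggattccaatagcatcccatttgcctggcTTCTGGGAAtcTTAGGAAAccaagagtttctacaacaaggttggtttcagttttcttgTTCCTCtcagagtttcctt
Fpr3: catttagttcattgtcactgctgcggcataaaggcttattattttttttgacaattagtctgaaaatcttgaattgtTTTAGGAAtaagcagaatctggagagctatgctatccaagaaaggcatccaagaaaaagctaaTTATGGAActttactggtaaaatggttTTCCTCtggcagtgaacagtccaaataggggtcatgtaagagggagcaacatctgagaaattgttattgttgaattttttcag
The C/EBP letters matched 3 times before Fpr1 and 2 times each before Fpr2 and Fpr3, a match that 36.8% of all 32851 such windows hold. PU.1 letters occurred once each before Fpr2 and Fpr3 (23.3% of all windows), and STAT letters once before Fpr2 (7.02%), with no overlap between these matches. No match was found to TGANTCA (AP-1, 6.75% of all windows), ACGTG (HIF, 16.6%) or the NF-kB motif (7.25%). A match is a description of letters only.

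The values rest on 17469713 to 21092850 counts per library. Levels are CPM, in which TMM factors scale counts to libraries of equal effective size, or CPM per kilobase of gene length where genes are compared. CTR replicate 1 stood apart: its mean correlation with its own group was 0.870, against 0.919 to 0.990 for the other libraries, and its TMM factor was 0.749, the lowest, where the highest was 1.07. Relative to the other CTR libraries it read higher for short genes (median log2 difference 0.88 for lengths up to 1928 bases) and lower for long ones (-0.69 from 3475 bases), and the receptor genes, at 1133 to 1324 bases, fall among the short. Results are therefore also given without it. By edgeR's quasi-likelihood test at an adjusted p under 0.05, 1137 of 15028 genes tested were higher and 1404 lower in TDE than in CTR. Those counts depended on single libraries: 2541 calls in all became 5266 without CTR replicate 1, 3944 without CTR replicate 3 and 1103 to 1177 without any 1 TDE library. The 2095 calls against NE became 6223 without CTR replicate 1 and 970 to 1274 without any 1 NE or TDE library.

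All 3 receptor mRNAs were more abundant in TDE-treated BMDCs than in CTR or NE-treated BMDCs, in the order Fpr3, Fpr2, Fpr1 by fold. Fpr1 was 2.14-fold, Fpr2 4.25-fold and Fpr3 21.2-fold above CTR. The NE and CTR libraries overlapped for each receptor. The receptors were chosen with these levels known, so the levels are a description and carry no test. In bulk RNA, more cells of a type and more RNA per cell cannot be told apart.

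**Figure D1:**
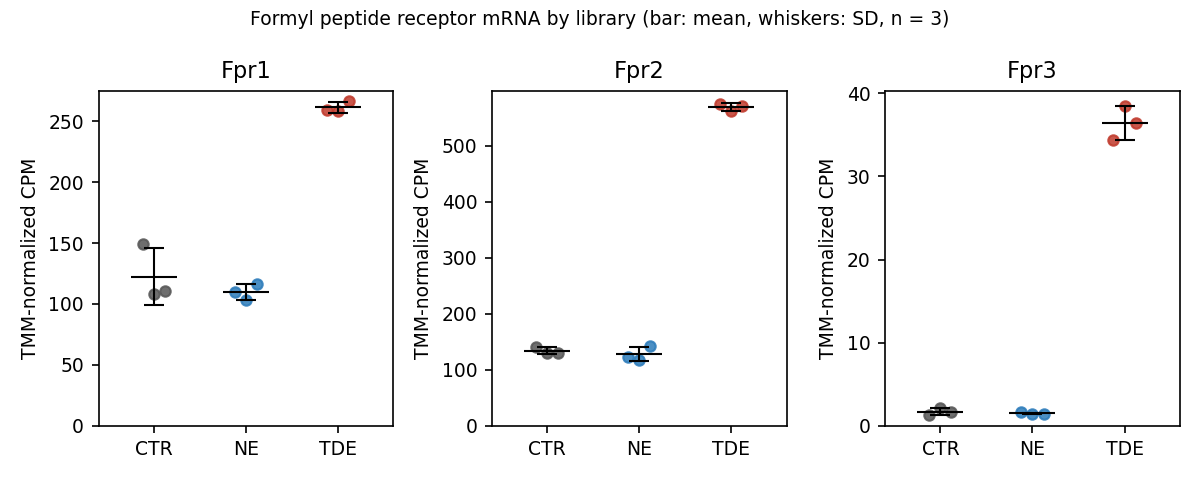
TMM-scaled CPM of Fpr1, Fpr2 and Fpr3 in each of the 9 libraries, by group, with the mean and SD (n = 3). Each receptor has its own linear axis. The TDE libraries lie above every CTR and NE library for each receptor. By fold the gap is widest for Fpr3, which had 1.27 to 2.16 CPM in CTR and 34.4 to 38.5 CPM in TDE.

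Fpr1, the high-affinity formyl peptide receptor, had 2358, 2393 and 2189 reads in CTR, 2073, 1903 and 2352 in NE, and 4685, 4745 and 5119 in TDE. As levels these were 149, 108 and 110 CPM in CTR, 110, 103 and 117 CPM in NE, and 259, 259 and 267 CPM in TDE. The TDE libraries were all higher than the others, CTR replicate 1 was the highest of the rest, and CTR and NE overlapped. The mean was 122 ± 23.2 CPM (SD, n = 3) in CTR, 109.9 ± 6.87 in NE and 262 ± 4.68 in TDE. The log2 fold change was 1.10 (SE 0.155) for TDE against CTR and 1.25 (SE 0.155) for TDE against NE. For NE against CTR it was -0.16 (SE 0.153). The lowest TDE library was 1.73 times the highest CTR library.

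Fpr2, the receptor with the widest set of ligands, had the highest level per length in every library. Its reads were 2231, 2869 and 2592 in CTR, 2325, 2173 and 2860 in NE, and 10380, 10295 and 10923 in TDE. The corresponding levels were 141, 129 and 131 CPM in CTR, 123, 118 and 142 CPM in NE, and 574, 561 and 570 CPM in TDE. Again CTR and NE overlapped and TDE stood clear of both, with a lowest TDE library 3.97 times the highest CTR library. Means were 134 ± 6.51 CPM in CTR, 128 ± 12.8 in NE and 569 ± 6.74 in TDE (SD, n = 3). The log2 fold change of Fpr2 was 2.09 (SE 0.130) against CTR and 2.16 (SE 0.130) against NE, while NE against CTR gave -0.07 (SE 0.125).

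Fpr3, the close relative of Fpr2, had few reads without tumor exosomes. It had 20, 48 and 33 reads in CTR and 30, 27 and 29 in NE, against 621, 706 and 698 in TDE. In CPM this was 1.27, 2.16 and 1.66 in CTR, 1.59, 1.46 and 1.44 in NE, and 34.4, 38.5 and 36.4 in TDE. The TDE libraries differed little among themselves, and the lowest of them was 15.9 times the highest CTR library. Group means were 1.70 ± 0.450, 1.50 ± 0.0810 and 36.4 ± 2.06 CPM (SD, n = 3). Fpr3 had a log2 fold change of 4.41 (SE 0.209) against CTR and 4.60 (SE 0.211) against NE, and -0.19 (SE 0.203) for NE against CTR.

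Among the 15028 genes tested, ordered by log2 fold change in TDE against CTR, Fpr3 ranked 30, Fpr2 223 and Fpr1 861. All 3 passed the adjusted p threshold as higher in TDE, as did 7.57% of all genes tested against CTR and 6.73% against NE. All 3 also had every TDE library above every other library, where 22.2% of genes did so against CTR and 26.8% against NE. NE and CTR overlapped for all 3, where 4.05% of genes had every NE library above CTR and 3.67% every NE library below. These counts follow from the choice of the genes. The comparisons with CTR and with NE share the TDE libraries. Without CTR replicate 1 and under each of the other alternatives the receptors stayed higher in TDE than in CTR, with log2 fold changes of 1.02 to 1.25 for Fpr1, 2.07 to 2.16 for Fpr2 and 4.23 to 4.63 for Fpr3.

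Per kilobase of gene length, the order of levels was Fpr2, Fpr1, Fpr3 in all 3 groups. CTR BMDCs had 118 ± 5.74 CPM per kb of Fpr2, 92.5 ± 17.5 of Fpr1 and 1.39 ± 0.369 of Fpr3 (SD, n = 3), and NE BMDCs 113 ± 11.3, 83.0 ± 5.19 and 1.23 ± 0.0664. In CTR the highest Fpr1 library, replicate 1 (113 CPM per kb), nearly reached the lowest Fpr2 library, replicate 2 (114). Within replicate 1 Fpr2 was at 125. In CTR replicates 2 and 3 Fpr1 was at 81.5 and 83.3 CPM per kb and Fpr2 at 114 and 115. TDE BMDCs had 502 ± 5.94 CPM per kb of Fpr2, 198 ± 3.53 of Fpr1 and 29.9 ± 1.69 of Fpr3, so that all neighbours in the order differed beyond their spread. The Fpr2 level was 1.30 ± 0.166 times the Fpr1 level per kb in CTR, 1.36 ± 0.0581 times in NE and 2.54 ± 0.0479 times in TDE.

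The make-up of the receptor reads differed along with their number. The 3 genes summed to 258 ± 29.3 CPM in CTR, 239 ± 19.4 in NE and 867 ± 7.61 in TDE (SD, n = 3). Fpr1 gave 47.2 ± 3.41% of these reads in CTR, 46.0 ± 1.02% in NE and 30.2 ± 0.359% in TDE. The Fpr2 share was 52.1 ± 3.19%, 53.3 ± 1.08% and 65.6 ± 0.499% in the same order. The TDE libraries thus held a smaller part of Fpr1 and a larger part of Fpr2, with no overlap with the other groups.

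Fpr3 supplied 0.674 ± 0.235% of the receptor reads in CTR, 0.630 ± 0.0668% in NE and 4.20 ± 0.263% in TDE. For every 100 Fpr2 reads there were 0.896, 1.67 and 1.27 Fpr3 reads in the CTR libraries, 1.29, 1.24 and 1.01 in NE and 5.98, 6.85 and 6.39 in TDE. The ratio was higher in each TDE library than in any other. With Fpr2 and Fpr3 reads summed into 1 gene, an alternative chosen after seeing the data, the log2 fold change against CTR was 2.16. That sum left out the reads of Gm5966.

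**Figure D2:**
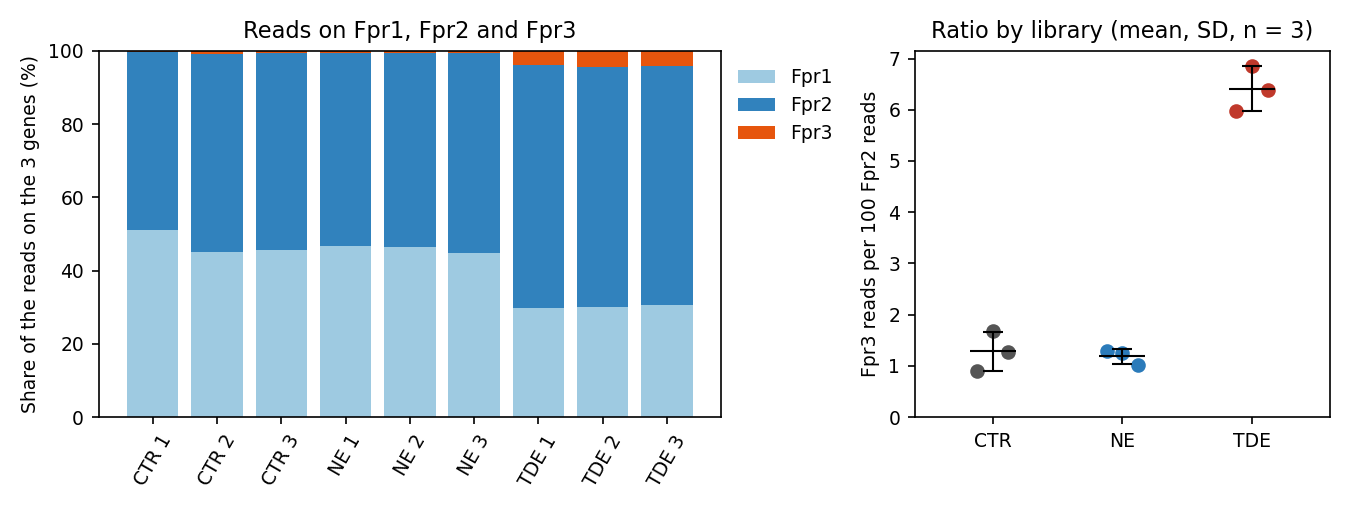
Left, share (%) of the reads on Fpr1, Fpr2 and Fpr3 taken by each gene in each library. Right, Fpr3 reads per 100 Fpr2 reads by group, with points for libraries and lines for the mean and SD (n = 3); TDE libraries lie at 5.98 to 6.85 and the others at or below 1.67.

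The other genes of the mouse Fpr cluster, which include receptors of the vomeronasal organ, were not detected. Fpr-rs3, Fpr-rs4, Fpr-rs6, Fpr-rs7 and the pseudogene Fpr-rs5 had 0 reads in all 9 libraries, which allows up to 3 reads or 0.135 to 0.190 CPM per library, a limit for counting error only. The coding sequences of the 4 genes other than the pseudogene were 69.3% to 72.6% identical to Fpr2, and no 25-base window of the Fpr2 transcript occurred in any of the 5.

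Several genes around the receptors were higher in TDE as well. Between 50 kb before Fpr1 and 50 kb beyond Fpr-rs4, a window chosen after the data were seen, 6 further genes were tested. By edgeR's quasi-likelihood test 5 of the 6 were higher in TDE than in CTR and than in NE (7.57% and 6.73% of all genes), and none differed between NE and CTR. Spaca6, a gene for a sperm membrane protein, had 154, 195 and 262 reads in CTR, 195, 173 and 186 in NE and 678, 727 and 793 in TDE. Its groups of CTR and NE overlapped and TDE was higher throughout, with a log2 fold change of 1.90 (SE 0.172, adjusted p = 0.000387) against CTR.

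Has1, a hyaluronan synthase gene, had 0, 5 and 0 reads in CTR, 6, 3 and 2 in NE and 56, 33 and 50 in TDE (adjusted p = 0.00843 against CTR). Its call against NE (adjusted p = 0.0181) was lost without any 1 NE or TDE library, at adjusted p up to 0.0939. The pseudogenes Gm5966, Gm7531 and Gm7535 lie between the coding exons of Fpr2 and Fpr3, inside the span of the long Fpr3 transcript. Gm5966 had 53.2 to 77.2 reads in TDE and at most 4.01 in any other library. Its transcript was 95.7% identical to that of Fpr2 over 1034 aligned positions, and its reads are uncertain for that reason: there were 0.513, 0.577 and 0.707 of them per 100 Fpr2 reads in TDE, and 0 to 0.155 in CTR and NE. The other pseudogenes had no extended match to the receptors. Gm7535 had 24.1 to 32.2 reads against at most 5.02, and Gm7531 had 10 to 15 against at most 1. Counts this low give no dependable fold. Vmn2r124, on the far side of the cluster, was at 1.10 CPM in CTR and 1.20 CPM in TDE and was not called (adjusted p = 0.771).

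Of 10 other chemoattractant receptors listed, 7 were tested, and more of them were called lower than higher in TDE. In TDE against CTR 1 rose and 4 fell (7.57% and 9.34% of all genes), and in TDE against NE the same genes moved the same way (6.73% and 7.21%), although the call of C3ar1 against NE was lost without TDE replicate 1 or TDE replicate 3 (edgeR's adjusted p up to 0.0530). The median log2 fold change of the list was -0.89 against CTR and -1.07 against NE, beside -0.06 and -0.02 over all genes. C3ar1, the receptor for complement C3a, rose from 393 ± 17.6 CPM in CTR to 656 ± 17.7 in TDE (log2 fold change 0.74, SE 0.126, adjusted p = 0.00640, edgeR's quasi-likelihood test).

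The receptors for C5a fell. C5ar1 went from 178 ± 21.1 CPM in CTR and 207 ± 8.71 in NE to 95.7 ± 5.47 in TDE (log2 fold change -0.89 against CTR, edgeR's adjusted p = 0.00361), and C5ar2 had a log2 fold change of -0.94. Cmklr1, the chemerin receptor, and Ptafr, the receptor for platelet-activating factor, fell by 0.91 and 0.90 on the log2 scale. Scaling by library totals left 3 of the 5 calls against CTR, with Cmklr1 (edgeR's adjusted p = 0.0510) and Ptafr (0.0738) lost, and Ptafr was also lost without any 1 TDE library. Ltb4r1, a leukotriene B4 receptor, had 43.5 to 177 CPM in CTR and 93.1 to 105 CPM in TDE (adjusted p = 0.871). It was called higher in TDE without CTR replicate 1.

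**Figure D3:**
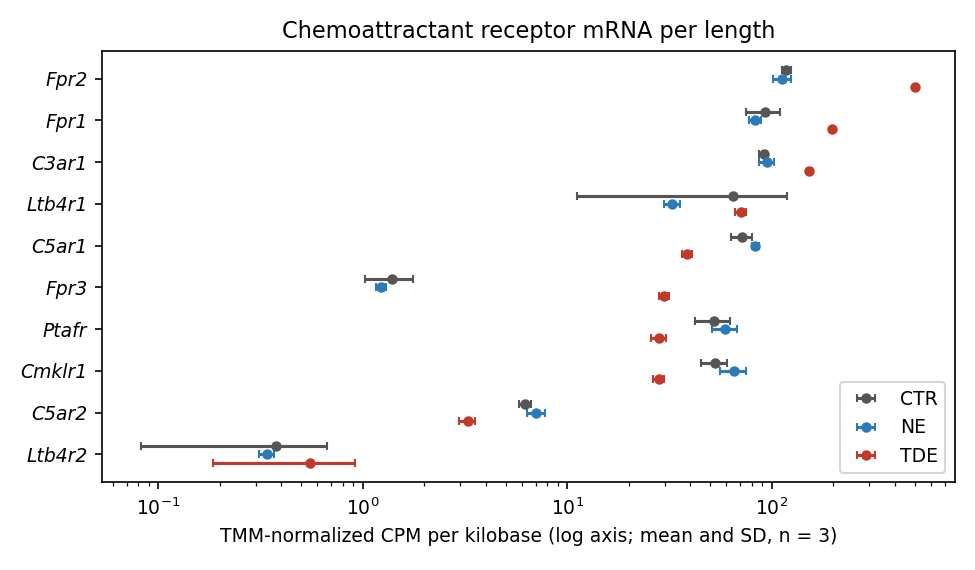
Levels of the formyl peptide receptors and of the tested chemoattractant receptors in CPM per kb (log axis), as the mean and SD of 3 libraries per group. Fpr1, Fpr2, Fpr3 and C3ar1 are highest in TDE, with Fpr2 at 502 CPM per kb, and C5ar1, C5ar2, Cmklr1 and Ptafr are lowest in TDE. The means of Ltb4r1 (70.4 CPM per kb in TDE, 65.0 in CTR) and Ltb4r2 (0.550 and 0.375) are also highest in TDE. Their CTR and TDE libraries overlap, and neither was called.

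Among genes for endogenous ligands and for enzymes that make or trim them, 17 were listed and 13 tested. In TDE against CTR 1 rose, 7 fell and 5 were not called, where 7.57% of all genes rose and 9.34% fell. The same genes were called in TDE against NE (6.73% and 7.21% of all genes). Their median log2 fold change was -0.85 against CTR and -0.95 against NE. Anxa1, which encodes the FPR ligand annexin A1, fell from 834 ± 80.8 CPM in CTR and 953 ± 101 in NE to 356 ± 18.9 in TDE (log2 fold change -1.23, SE 0.144, adjusted p = 0.00126 against CTR, edgeR's quasi-likelihood test). Camp, the cathelicidin gene, fell from 178 to 1202 CPM across CTR and 206 to 325 CPM across NE to 19.9 to 22.4 CPM in TDE. Camp and Ctsg are genes of neutrophil granules. Of 13 neutrophil markers 0 rose and 8, among them Ltf (log2 fold change -3.06), Ly6g (-2.48) and Ngp (-1.82), fell against CTR. Without CTR replicate 1, Csf3r and Lcn2 were called higher against CTR and 10 of the 13 lower, with 5266 calls over all genes instead of 2541. All 4 eosinophil markers fell against CTR as well. The part of these cells in the ligand levels was not tested.

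Saa3, which encodes a serum amyloid A, was the only member of the list called higher with all 9 libraries. It ranged over 182 to 1352 CPM in CTR, 125 to 227 CPM in NE and 9104 to 9599 CPM in TDE, with the highest CTR value in replicate 1. The log2 fold change of Saa3 was 4.0 (SE 0.779, adjusted p = 0.0109 by edgeR's quasi-likelihood test) against CTR and 5.81 against NE. Fitted on the 6 CTR and TDE libraries alone its edgeR adjusted p was 0.0520, and DESeq2 gave it no adjusted p. Its relatives Saa1 and Saa2 had 0 reads in CTR and NE and 9 to 16 reads in TDE, and were not tested. App, abundant in all groups, had 688 ± 358 CPM in CTR, 883 ± 54.7 in NE and 1049 ± 40.6 in TDE. It was not called in either comparison. Without CTR replicate 1 App was called higher against NE, and Pdf lower in both comparisons. The list then held 1 higher and 8 lower against CTR, and 2 higher and 8 lower against NE. Calls over all genes were then 5266 and 6223.

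Among the enzymes, Anpep, an aminopeptidase of the cell surface, fell from 199 ± 21.0 CPM in CTR to 50.2 ± 3.30 in TDE (log2 fold change -1.99, SE 0.133, adjusted p = 0.000103 by edgeR's quasi-likelihood test). Alox15, a lipoxygenase on the route to lipoxins, fell by 2.77 on the log2 scale. Ctsg, the gene for the neutrophil protease cathepsin G, fell by 1.61, a call lost without TDE replicate 1 or TDE replicate 3 (adjusted p up to 0.0603). Prnp and Plaur also fell. Mtfmt, the enzyme that formylates mitochondrial initiator tRNA, had 15.2 ± 1.44 CPM in CTR and 15.1 ± 0.477 in TDE and was not called. Without any 1 TDE library the calls against NE numbered 5 instead of 8.

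**Figure D4:**
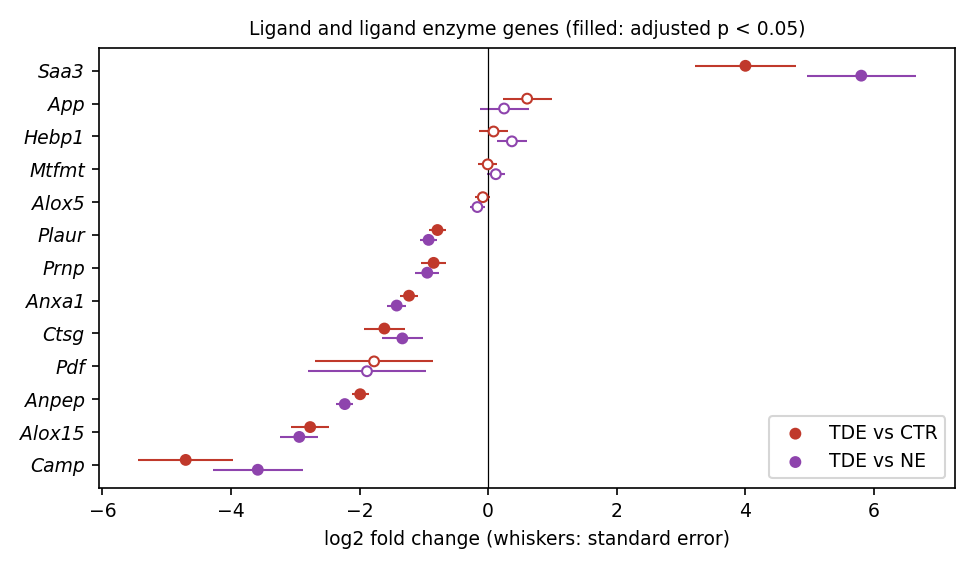
Log2 fold changes of the 13 tested ligand and ligand enzyme genes in TDE against CTR and against NE, with the standard error; filled points have an adjusted p under 0.05. Saa3 lies to the right in both comparisons, and Camp, Alox15 and Anpep lie farthest to the left.

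The 13 proteins encoded by mitochondrial DNA, the source of formylated peptides in mammalian cells, gave no steady pattern. Of 12 tested, mt-Nd3 and mt-Nd4l fell in TDE against CTR (edgeR's adjusted p = 0.0498 and 0.0494), and mt-Co2 rose against NE (adjusted p = 0.0104), beside 16.9% and 13.9% of all genes called in either direction. The 2 calls against CTR became 6 without CTR replicate 1, 1 without CTR replicate 2 or TDE replicate 1, and 0 without any 1 NE library, TDE replicate 2 or TDE replicate 3. Against NE the 1 call became 8 without CTR replicate 1 and 0 without NE replicate 2. Calls over all genes without CTR replicate 1 were 5266 against CTR and 6223 against NE, instead of 2541 and 2095. mt-Nd4l overlaps mt-Nd4 on the same strand, so its reads are uncertain. The highest levels were those of mt-Co1 (8243 ± 6046 CPM in CTR and 15316 ± 779 in TDE), mt-Nd4 and mt-Cytb, none of them called. Without CTR replicate 1, mt-Co1 was called higher and mt-Cytb lower in both comparisons. The gene not tested, mt-Atp6, was listed with 6912 reads in CTR replicate 1 and 0 in the other 8 libraries.

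Downstream of the receptors, 39 of 39 listed signaling genes were tested. In TDE against CTR 10 rose, 2 fell and 27 were not called, and in TDE against NE 8 rose, 3 fell and 28 were not called. Over all genes 7.57% rose and 9.34% fell against CTR, and 6.73% rose and 7.21% fell against NE. The median log2 fold change was 0.24 against CTR and 0.20 against NE. Prkcb, the protein kinase C beta gene, rose from 90.4 ± 23.1 CPM in CTR to 249.99 ± 13.9 in TDE (log2 fold change 1.47, SE 0.232, adjusted p = 0.00477, edgeR's quasi-likelihood test). Arrb1, encoding beta-arrestin 1, which uncouples active receptors from G proteins, rose from 236 ± 38.4 to 505 ± 8.70 CPM (log2 fold change 1.10).

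The Src family kinase gene Lyn rose by a log2 fold change of 1.07, Rac2, the small GTPase of the phagocyte oxidase, by 0.93 and the phosphoinositide 3-kinase subunit gene Pik3r5 by 0.90. Rac2 was at 0.0293 by edgeR's adjusted p against CTR and up to 0.111 under the alternatives. Rgs2 and Rgs18, which speed up the shut-off of G proteins, fell by 1.05 and 0.99. Cybb, the catalytic subunit of the oxidase, had 1916 ± 405 CPM in CTR and 3207 ± 158 in TDE. It passed against CTR (adjusted p = 0.0341) and not against NE (adjusted p = 0.0847). Gnai2, the main Gi alpha gene of leukocytes, and Ncf1, an oxidase subunit, were abundant and not called (log2 fold changes 0.13 and -0.05), the latter turning sign under 1 of 3 other scalings.

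These signaling calls depended on single libraries. Against CTR, 12 became 22 (16 higher, 6 lower) without CTR replicate 1 and 7 without CTR replicate 2 or any 1 TDE library. Against NE, 11 became 25 without CTR replicate 1, 7 without NE replicate 1, NE replicate 2 or TDE replicate 2, and 6 without TDE replicate 1 or TDE replicate 3. In NE against CTR edgeR's quasi-likelihood test called no gene of these lists and 0% of all genes (0 of 15028), while 487 genes had an unadjusted p under 0.05. DESeq2 called 6 genes there, 1 of them encoded by mitochondrial DNA.

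**Figure D5:**
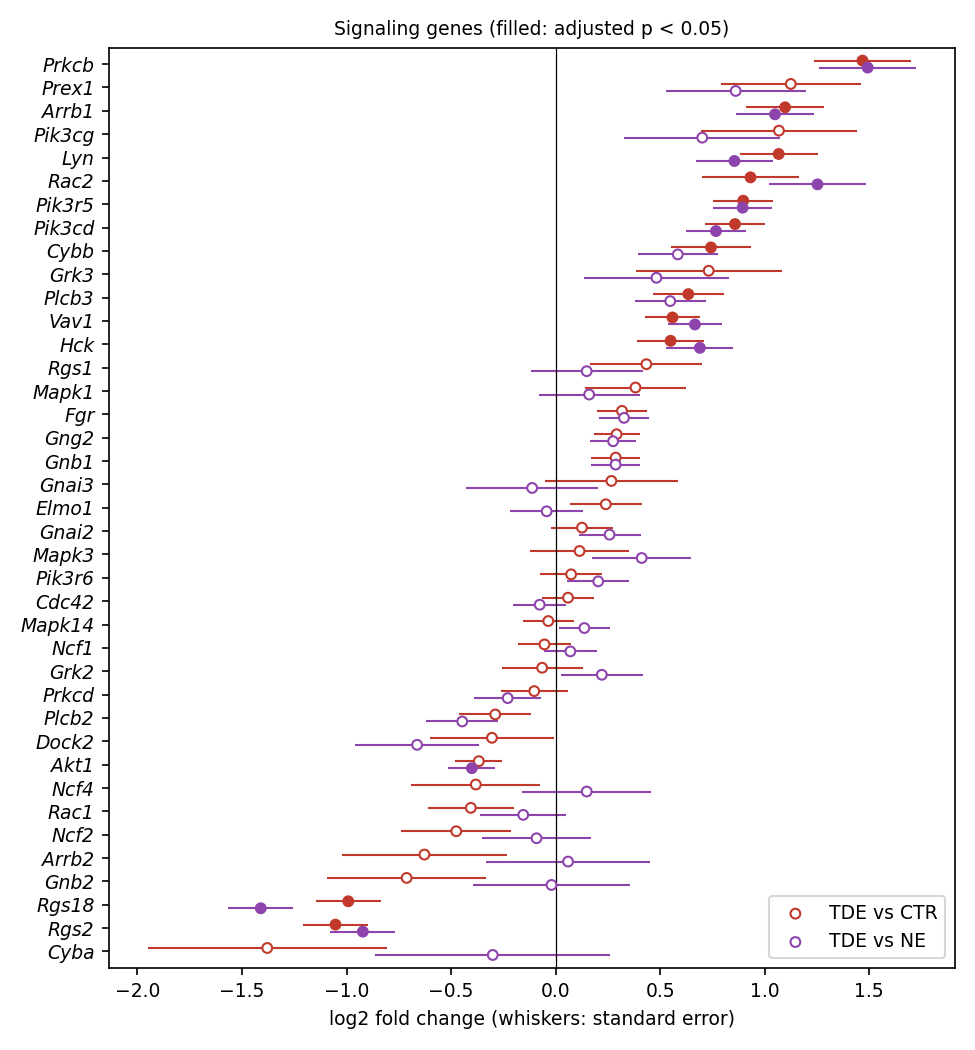
Log2 fold changes of the signaling genes in TDE against CTR and against NE, with the standard error; filled points have an adjusted p under 0.05. Among the filled points Prkcb, Arrb1 and Lyn lie farthest right against CTR, and Rgs2 and Rgs18 farthest left.

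Formyl peptide receptors are also abundant in neutrophils, monocytes and macrophages, so marker genes of these cells are set beside the receptor levels. In TDE against CTR, where 7.57% of all genes rose and 9.34% fell, 0 of 13 neutrophil markers rose and 8 fell. Against NE, where 6.73% of all genes rose and 7.21% fell, 1 rose (Lcn2, log2 fold change 1.53, edgeR's adjusted p = 0.0219) and 6 fell. Their summed level was 29995 CPM in CTR replicate 1, and 10794 and 8355 CPM in the other CTR libraries. It was 8790 to 12157 CPM in NE and 5848 to 6193 CPM in TDE, all 13 being detected in every group. Of 6 monocyte markers 0 rose and 2 fell against either group (2851 to 3597 CPM in CTR and 2364 to 2405 in TDE, summed). Of 9 macrophage markers 1 rose and 2 fell against CTR, and 1 rose and 1 fell against NE, with sums of 4012 to 4792 CPM in CTR, 3874 to 4166 in NE and 5366 to 5733 in TDE. The macrophage marker that rose was Adgre1 (F4/80), from 377 ± 149 to 2226 ± 102 CPM (log2 fold change 2.56). The part of these markers in the receptor levels was not tested.

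Dendritic cell markers were present, Itgax (CD11c) at 107 to 177 CPM over the libraries, but Cd209a was at 0 in all TDE libraries and at or below 0.162 CPM in the others. Of 9 tested, 5 fell in TDE against CTR and 3 in TDE against NE, with 9.34% and 7.21% of all genes lower. Without CTR replicate 1 the neutrophil markers were 2 higher and 10 lower, the monocyte markers 1 and 4, the macrophage markers 2 and 5, and the dendritic cell markers 1 and 7. All 4 eosinophil markers fell against either group. Fibroblast markers, listed because NIH 3T3 is a fibroblast line, summed to 5.91 to 6.20 CPM in CTR, 5.85 to 6.51 in NE and 9.05 to 10.1 in TDE. Of 5 tested, 2 rose against CTR (Dcn, log2 fold change 3.23, and Pdgfrb, 0.95) and 1, Dcn, against NE. Epithelial markers summed to 4.36 to 12.7 CPM, and 1 of 2 tested, Cdh1, fell against either group. The part of these cells in the receptor levels was not tested.

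The genes whose levels ran most nearly with each receptor over the 9 libraries, among 10326 genes of at least 5 CPM, are a description. The step from 6 libraries to the 3 TDE libraries raises r for any gene that shares it. With Fpr1 the nearest were Marco (Pearson r = 0.999), a scavenger receptor, P4hb (0.998), a protein disulfide isomerase, and Sod2 (0.998), the mitochondrial superoxide dismutase. Marco (138 ± 109 CPM), P4hb (525 ± 87.1) and Sod2 (204 ± 50.1) also varied within CTR, as Fpr1 did. Correlations without CTR replicate 1 were not computed. With Fpr2 the nearest were Anxa6 (0.999), a membrane-binding annexin, Maged1 (0.998) and Qsox1 (0.997), a sulfhydryl oxidase. Fpr3 ran with Socs3 (0.998), a feedback inhibitor of cytokine signaling, Ddit4 (0.998), an inhibitor of mTORC1, and Slc2a1 (0.998), the glucose transporter GLUT1. Among the receptors r was 0.980 for Fpr1 and Fpr2, 0.952 for Fpr1 and Fpr3 and 0.991 for Fpr2 and Fpr3.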

How the data were processed

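RNA of 9 BMDC libraries (3 each of CTR, NE and TDE) was measured by RNA-seq. The authors aligned reads with TopHat2 2.1.1 and, per the labels, used DESeq2 1.24.0 and R 3.3.1. The authors deposited estimated counts per gene, some fractional, beside a mean per group that was not used here. The counting program, genome build and strand setting are not given in the sources used here. Entries without a gene symbol (1702 of 57238) were kept under their identifiers.

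Counts were rounded and fitted with edgeR 4.0.16 (R 4.3.3; TMM scaling, filterByExpr, quasi-likelihood F test, all 9 libraries, 1 mean per group), leaving 15028 genes. P-values were adjusted by Benjamini-Hochberg over all of them, with a threshold of 0.05. The standard error was taken from the log2 fold change and its F. The procedure was tested on simulated data. Log2 fold changes and calls were recomputed without the filter, with the replicate number as a block, and on the 6 libraries compared alone. They were also recomputed without each library in turn, scaled by library totals or by median ratios, and with DESeq2 1.42.0. Biopython 1.88 aligned the coding sequences.

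The receptors, gene lists and alternatives were chosen with earlier results of these data known. Genes named from a list were up to 5 with the largest rise and 5 with the largest fall in TDE against CTR among those called at a mean of at least 5 CPM, plus the 3 most abundant, and for each receptor the 3 genes with the highest correlation of log2 CPM. Ltb4r1, Mtfmt, Prnp, Plaur, Pdf, Saa1, Saa2, mt-Co2, mt-Atp6, Itgax, Cd209a, Adgre1, the other markers and the neighbouring genes were named after their values were seen. Lyn and Gm26857, App and Gm49227, Ncf1 and Gtf2ird2, and mt-Co1 and mt-Ts1 overlap on opposite strands. Their reads cannot be fully separated without a stated strand setting. C5ar2 and Gm26473, and Spaca6 and Mir125a, overlap on the same strand, where no strand setting would separate the reads.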

Additional observations from a re-analysis of the deposited data

How the results depend on the processing

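The 3 receptors were higher in TDE than in CTR and than in NE under every alternative run. Leaving out each library gave log2 fold changes against CTR of 1.02 to 1.25 (Fpr1), 2.07 to 2.12 (Fpr2) and 4.23 to 4.63 (Fpr3), and against NE of 1.21 to 1.31, 2.1 to 2.25 and 4.56 to 4.64. For Fpr2 against CTR, scaling by library totals gave 2.16, no filter 2.14 and summing with Fpr3, added after seeing the data, 2.16. In NE against CTR Fpr2 had a log2 fold change of 0.067 by library totals, and leaving out libraries gave -0.23 to 0.01 (Fpr1), -0.16 to -0.01 (Fpr2) and -0.36 to 0.03 (Fpr3). Calls over all genes against CTR (2541) were 4018 with DESeq2, 1152 on the 6 libraries of the pair and 1103 to 5266 leaving out each library. Against NE (2095) they were 6072 on the 6 libraries and 970 to 6223 leaving out each library, and for NE against CTR 6 with DESeq2 and 0 to 3. The chemoattractant receptor calls were 3 by library totals against CTR and 4 to 6 leaving out libraries in both comparisons. Leaving out libraries, ligand calls ran from 6 to 9 against CTR and 5 to 10 against NE, and on the 6 libraries of the pair they were 11 against NE. Mitochondrial calls against CTR (2) were 1 by median-ratio factors, library totals or no filter, 0 on the 6 libraries and 0 to 6 leaving out libraries. Against NE (1) they were 2 with DESeq2, 8 on the 6 libraries and 0 to 8 leaving out libraries, and 1 for NE against CTR with DESeq2. Signaling calls were 7 on the 6 libraries and 7 to 22 leaving out libraries against CTR, and 25 and 6 to 25 against NE. The cause of these differences was not tested. Deviations of same-numbered libraries from their group means correlated at -0.06 to 0.07 for TDE with CTR and -0.07 to 0.03 for TDE with NE. For NE with CTR they correlated at -0.59 to 0.18. With 3 libraries per group and CTR replicate 1 apart, these values cannot settle whether same-numbered libraries were paired. With the replicate block 1285 genes were called against CTR and 1175 against NE, signaling calls were 7 and 6, and mitochondrial calls against CTR 0. At these depths Fpr3 rested on 20 to 48 reads per library outside TDE.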
